A study of Homo sapiens with 40 samples.

Results

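OCI-LY-19 is an established human line of diffuse large B-cell lymphoma, a fast-growing cancer of B cells, and it is 1 of 3 lines in the series with wild type EZH2. The data described here are the 4 arrays of this line, of 40 in all: 2 from cultures given 500 nM GSK126 for 72 h and 2 from cultures given 0.1% DMSO for 72 h, chosen by the line and treatment in their titles. GSK126 is a small molecule that inhibits EZH2. The other 9 lines were treated in the same way on arrays of their own, 2 per line and treatment. Of these, HT and Toledo are wild type and DB, Pfeiffer, KARPAS-422, SU-DHL-4, WSU-DLCL2, SU-DHL-6 and SU-DHL-10 carry mutant EZH2. The growth IC50 of GSK126 in the labels is 1019 nM for OCI-LY-19, so the dose lies below it, and it spans 28 nM in Pfeiffer to 13786 nM in Toledo. The titles name the 2 arrays of a group as biological replicates, with nothing on whether separate cultures were grown. The p-values therefore set the response of 1 line against the spread between such arrays, which may be technical. That spread is pooled for each gene over the arrays of all 10 lines.

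EZH2 is the enzyme of Polycomb repressive complex 2 (PRC2) and places methyl groups on lysine 27 of histone H3, a mark found at silent genes. In germinal centre B cells EZH2 is abundant and holds down genes of B cell exit and differentiation. MHC class II molecules, which B cells use to show peptides to helper T cells, are switched on by the coactivator CIITA acting with DNA-binding factors on short promoter elements called the X and Y boxes. These statements are background and were not measured here.

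The arrays grouped by their labelled line, which does not by itself establish which line it is, and the treatment label was not checked. All 40 arrays correlated best with an array of their own line, and the 4 OCI-LY-19 arrays correlated with each other at 0.9810 to 0.9829 and with arrays of other lines at 0.8637 to 0.9203. Of the 9 B cell lineage markers 8 had a single-symbol probe set, and 7 of these (CD79A, CD79B, PAX5, CD22, CD74, HLA-DRA and BLNK) lay above the array median on 4 of 4 arrays. MS4A1, which encodes CD20, was below it on all of them. Fewer markers of other cell types lay above the median on all 4 arrays. They were 3 of 14 T and NK genes (CD3E, ZAP70 and PRF1) and 1 of 10 myeloid genes (CSF1R). The others were 4 of 13 stromal and epithelial genes and 2 of 7 erythroid and endothelial genes. Not all were low: ZAP70 had 1052 to 1168 and ACTA2 1008 to 1178, above HLA-DRA with DMSO (610 and 818). The summed T and NK signal came mostly from ZAP70. It was 1780 and 1973 on the GSK126 arrays and between 1604 and 1967 on the DMSO arrays, so the groups overlapped. The myeloid sum was 417 to 477 with GSK126 and 488 to 588 with DMSO. The part of other cell types in the results below was not tested.

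Few genes passed the test in OCI-LY-19, and most of those that did rose. Of 15211 genes tested, 366 were called (2.41%): 299 genes rose (1.97%) and 67 genes fell (0.440%) at an adjusted p under 0.05 (limma on log2(signal + 17.72), Benjamini-Hochberg over all genes tested). Rises had a median log2 fold change of 0.68 and reached 2.68, while falls had a median of -0.41 and reached -1.73. At least 2-fold changes were measured for 74 risen genes (0.486%) and 16 fallen genes (0.105%). The GSK126 and DMSO arrays did not overlap for any called gene, but this was so for 44.3% of all genes tested. The count rested on all 4 arrays: it was 205 without GSK126 replicate 1, 196 without GSK126 replicate 2 and 237 without DMSO replicate 2, and 366 with all 4. It was 165 when arrays were brought to equal medians, which moved the median of all genes to -0.06, against 0.01 as deposited. Fold changes are on the log2(signal + 17.72) scale and understate the change of dim genes.

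**Figure D1:**
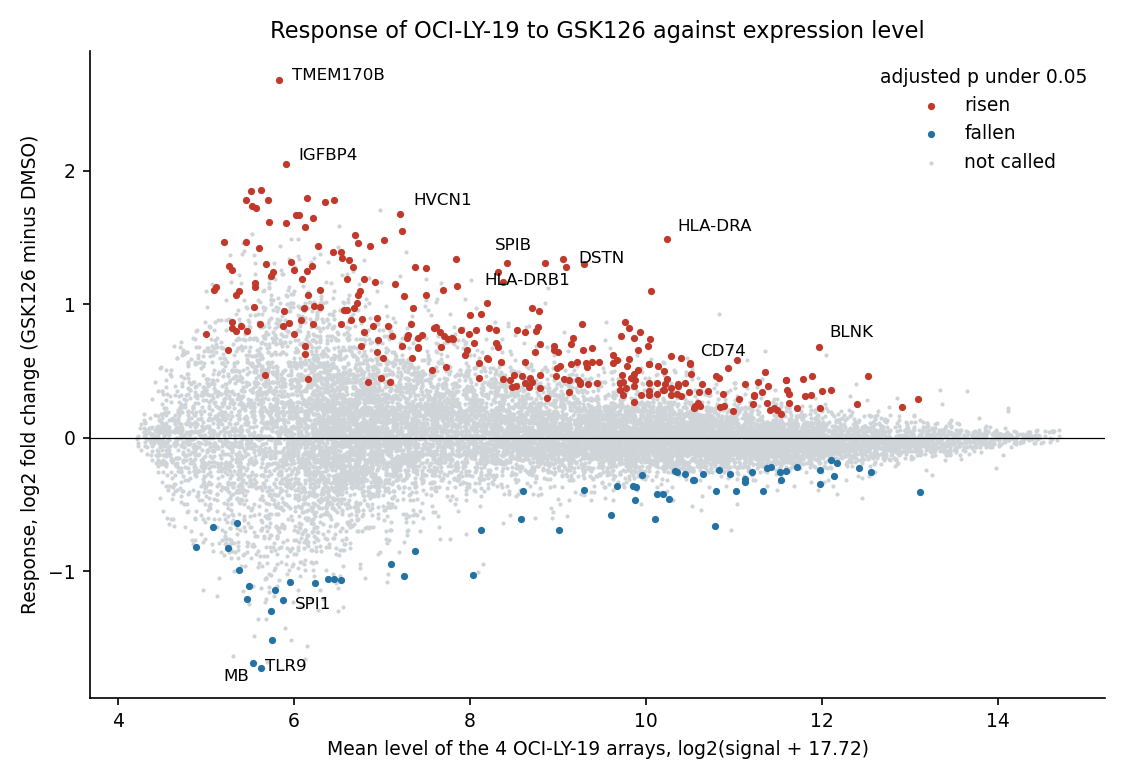
Each point is 1 gene. The x axis gives its mean level over the 4 OCI-LY-19 arrays as log2(signal + 17.72), the y axis its log2 fold change, GSK126 minus DMSO, with risen genes in red, fallen genes in blue and uncalled genes in grey. The largest changes, such as TMEM170B at 2.68 and MB at -1.73, lie among dim genes, and HLA-DRA at 1.49 is a large rise of a brighter gene.

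The largest rises were of genes that were dim without the drug. All 15 of the described top rises lay below the array median (80.7 to 88.7 signal units) on both DMSO arrays, and 9 of 15 lay at or above it on both GSK126 arrays. TMEM170B, a transmembrane protein, had signals of 114 and 141 with GSK126 and of 1.76 and 8.20 with DMSO. Both treated arrays were far above both DMSO arrays, and the log2 fold change was 2.68 ± 0.31 (SE, n = 2 arrays each, adjusted p = 1.21e-06). IGFBP4, a secreted protein that binds insulin-like growth factors, had 102 and 108 with GSK126 and 8.33 and 15.9 with DMSO, a change of 2.05 ± 0.28 (adjusted p = 2.04e-05). HVCN1, a proton channel that B cells express, had 281 and 216 with GSK126 and 69.6 and 60.3 with DMSO, a change of 1.68 ± 0.13 (adjusted p = 1.37e-09). The treated arrays were again the higher pair for each of these genes.

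The other large rises belonged to genes of unlike function. AK1, an adenylate kinase, rose by 1.80 ± 0.28 and AKR1C3, a reductase of steroids and prostaglandins, by 1.78 ± 0.36. The second AK1 probe set was at 0.05, and the AKR1C3 call was lost in 4 of 13 alternatives. SLC12A4, a potassium-chloride cotransporter, rose by 1.78 ± 0.45, but its adjusted p of 0.0271 was lost in 7 of 14 alternative analyses and its other 4 probe sets ranged from -0.81 to 0.49. ANXA13, an annexin that binds phospholipids, rose by 1.86 ± 0.41 and COLEC11, a soluble lectin of innate immunity, by 1.85 ± 0.46. Their calls were lost in 4 and 6 of 13 alternatives. HIC1, a transcriptional repressor, rose by 1.74 ± 0.42 and CYS1, a protein of the primary cilium, by 1.72 ± 0.36. Each lost its call in 5 of 13 alternatives. GRK3, a kinase of G protein-coupled receptors, rose by 1.67 ± 0.20, NDRG4 by 1.67 ± 0.30 and TBL1X, a part of nuclear corepressor complexes, by 1.65 ± 0.18. The other 5 TBL1X probe sets ranged from -0.01 to 0.94, and its call was lost at the probe set brightest in OCI-LY-19. TMEM154 rose by 1.78 ± 0.24 and OR7E47P, an olfactory receptor pseudogene, by 1.77 ± 0.25. AKR1C genes are near-identical in sequence, so the array may not tell AKR1C3 from its neighbours. Of the 26 genes with the largest rises and falls that are described here, 16 had 1 probe set, and 6 of the 10 with more had another probe set that moved the other way.

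The falls were fewer, and the largest were again of dim genes. All 11 of the described top falls lay below the array median on both GSK126 arrays. TLR9, the endosomal receptor for unmethylated DNA in B cells, had 7.96 and 7.84 with GSK126 and 83.8 and 49.8 with DMSO, a log2 fold change of -1.69 ± 0.17 (SE, n = 2 arrays each, adjusted p = 1e-07). SPI1, which encodes the myeloid and B cell transcription factor PU.1, had 19.96 and 21.21 with GSK126 and 60.8 and 84.1 with DMSO, a change of -1.22 ± 0.27 (adjusted p = 0.00819). Each was lower on both GSK126 arrays than on either DMSO array. MB, which encodes myoglobin, fell by 1.73 on the log2 scale (SE 0.42, adjusted p = 0.0184), PEG10, an imprinted gene derived from a retrotransposon, by 1.11 (SE 0.13) and CHGB, a secretory granule protein, by 1.21 (SE 0.31). ARHGEF10 fell by 1.52 (SE 0.33) at the probe set used. At the probe sets that are brightest in OCI-LY-19 the direction turned for ARHGEF10 (0.62) and PEG10 (0.28). CDIP1 (-1.14), MORN4 (-1.08), LIAT1 (-1.09), PFKFB4 (-1.07) and LOC100289361 (-1.30) made up the remainder. The call was lost in 8 of 13 alternatives for CDIP1, in 6 of 13 for MB and LIAT1 and in 5 of 13 for CHGB and ARHGEF10. For SPI1 it was lost in 4 of 13, and for TLR9 in 1 of 13. One Y-linked gene among the 12 largest falls is not described.

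The most marked pattern among the 31 gene lists was in MHC class II. Of 15 genes tested 7 rose and 0 fell, with a list median of 0.55, against 1.97% of genes risen and a median of 0.01 over all genes tested. Fitted on the 4 OCI-LY-19 arrays alone, 3 of the 15 rose. Among the 15 genes 12 lay above 0 (80%, against 51.7% of genes tested), and for 11 both GSK126 arrays exceeded both DMSO arrays, where 44.3% of genes tested did not overlap in either direction. The promoters of 3 risen class II genes are shown because letters of the Y box, one of the elements on which class II transcription is built, can be read in them on the strand of the gene. They come from RefSeq on GRCh38.p14, run from 250 bases before to 50 bases after the annotated start, and are printed 5′ to 3′ on the strand of the gene. HLA-DRB1 is at chr6:32589799-32590098, HLA-DMA at chr6:32953048-32953347 and HLA-DOA at chr6:33009542-33009841, all on the minus strand. Capitals mark the letters searched, GATTGG.
HLA-DRB1: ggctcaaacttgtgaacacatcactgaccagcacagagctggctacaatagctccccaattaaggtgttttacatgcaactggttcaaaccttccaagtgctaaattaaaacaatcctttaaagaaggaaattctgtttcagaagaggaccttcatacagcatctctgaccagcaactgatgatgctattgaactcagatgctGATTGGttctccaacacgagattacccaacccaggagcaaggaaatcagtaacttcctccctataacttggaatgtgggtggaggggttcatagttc
HLA-DMA: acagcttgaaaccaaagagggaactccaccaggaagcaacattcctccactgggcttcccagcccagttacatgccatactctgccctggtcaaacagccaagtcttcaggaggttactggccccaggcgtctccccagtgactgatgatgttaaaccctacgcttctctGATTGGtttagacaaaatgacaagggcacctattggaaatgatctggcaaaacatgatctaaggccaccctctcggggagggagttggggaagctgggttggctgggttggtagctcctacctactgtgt
HLA-DOA: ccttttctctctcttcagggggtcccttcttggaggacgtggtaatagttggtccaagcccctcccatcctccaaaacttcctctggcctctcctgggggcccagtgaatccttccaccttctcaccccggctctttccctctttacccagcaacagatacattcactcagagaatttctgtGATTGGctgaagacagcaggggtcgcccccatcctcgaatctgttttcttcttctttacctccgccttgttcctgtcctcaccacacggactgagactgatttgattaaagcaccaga

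The letters begin 47 bases before the start in HLA-DRB1, 68 in HLA-DOA and 80 in HLA-DMA. The motif was chosen with class II promoters in view, so its presence is a description, and a match is not a measured binding site. Both strands were searched, and the letters were found in 4 of the 6 risen class II genes with a promoter in the table, in 5 of the 6 class II genes with a promoter that were tested and not called, and in 15.1% of all 35116 promoters. In HLA-DPB1, which is counted but not shown, the match lies on the other strand and need not be the Y box. The same holds for HLA-DMB and RFX5 among the matches in genes not called. HLA-DRA has no entry in the table.

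HLA-DRA encodes the alpha chain of HLA-DR and rose most. Its signals were 2005 and 2022 with GSK126 and 610 and 818 with DMSO. The treated pair lay well above the DMSO pair, at a log2 fold change of 1.49 ± 0.10 (SE, n = 2 arrays each, adjusted p = 2.27e-11), and its second probe set rose by 0.81. HLA-DRB1, the partner beta chain, had 979 and 959 with GSK126 and 415 and 353 with DMSO, a change of 1.30 ± 0.08 (adjusted p = 4.88e-12). HLA-DRB genes are near-identical, so this signal may include paralogs. Both genes of HLA-DR were called under 14 of 14 alternatives.

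The chaperones of peptide loading rose as well. CD74, the invariant chain that guides class II molecules, had 1688 and 1773 with GSK126 and 1176 and 1179 with DMSO, a change of 0.55 ± 0.07 (adjusted p = 1.49e-05). HLA-DMA, which exchanges peptides, had 239 and 257 with GSK126 and 125 and 148 with DMSO, a change of 0.79 ± 0.06 (adjusted p = 7.86e-10). For both genes the treated arrays were the higher pair, although 2 further CD74 probe sets gave -0.29 and 0.17. HLA-DOA, a modulator of HLA-DM, had 142 and 141 with GSK126 and 72.3 and 85.3 with DMSO, a change of 0.73 ± 0.09, while its other 4 probe sets gave -0.26, -0.02, 0.04 and 0.23 and were not called. HLA-DPA1 and HLA-DPB1, the chains of HLA-DP, rose by 0.57 ± 0.11 and 0.60 ± 0.12, and 2 further HLA-DPA1 probe sets gave 0.94 and 1.24. Not every part of the pathway passed the test. HLA-DMB, the partner of HLA-DMA, was at -0.02 ± 0.15 with overlapping arrays, and the protease CTSS at -0.04 ± 0.09. HLA-DQA1 stood at 0.91 ± 0.36 (adjusted p = 0.25) and HLA-DQB1 at 0.27 ± 0.29 at the probe set used. The other 6 HLA-DQB1 probe sets gave 1.14, 0.11, -0.08, 1.22, 0.78 and 1.06, and 2 of them were called. CIITA, the class II coactivator, had 79.5 and 78.1 with GSK126 and 54.2 and 72.3 with DMSO, a change of 0.26 ± 0.24 (adjusted p = 0.808), and RFX5, a DNA-binding factor at the X box, was at 0.10 ± 0.08.

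**Figure D2:**
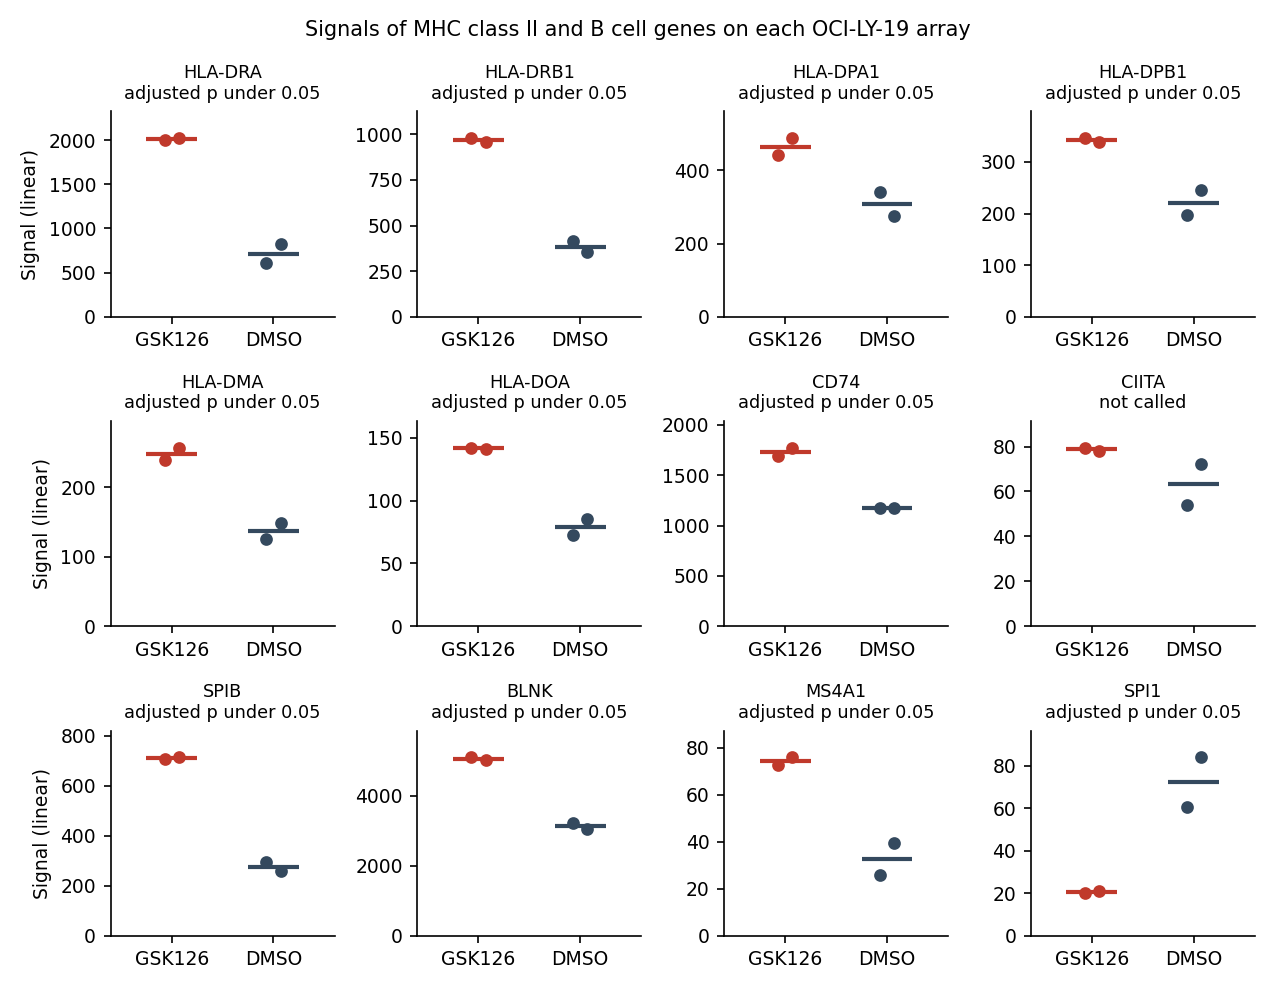
Each panel shows 1 gene. Points are single arrays of OCI-LY-19 and bars their mean, on a linear signal axis that starts at 0, with GSK126 in red at the left and DMSO in dark blue at the right. HLA-DRA reaches 2005 and 2022 with GSK126 and 610 and 818 with DMSO, and SPI1 is the gene that is lower with GSK126.

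B cell identity genes moved with them in part. Of 29 tested, 7 rose and 1 fell, against 1.97% and 0.440% of genes tested, and the list median was 0.07, against 0.01. SPIB, an ETS transcription factor of B cells related to PU.1, had 709 and 714 with GSK126 and 293 and 260 with DMSO, a change of 1.31 ± 0.08 (SE, n = 2 arrays each, adjusted p = 4.88e-12). The treated pair was the higher one, and the second SPIB probe set rose by 1.50. BLNK, the adaptor downstream of the B cell receptor, had 5098 and 5013 with GSK126 and 3232 and 3047 with DMSO, a change of 0.68 ± 0.09 (adjusted p = 2.11e-05). VPREB3, linked to early B cell receptor assembly, rose by 0.42 ± 0.06, the Src kinase LYN by 0.35 ± 0.06, the receptor chain CD79A by 0.32 ± 0.06 and the tetraspanin CD37 by 0.44 ± 0.12. SPI1 was the member that fell, a call lost in 4 of 13 alternatives. MS4A1 rose by 0.88 ± 0.08 at a very dim probe set (72.6 and 75.9 with GSK126, 25.7 and 39.4 with DMSO), and its other 3 probe sets gave -0.56, -0.16 and 0.21. PAX5, the factor that commits cells to the B lineage, was at -0.02 ± 0.13. The summed signal of the B lineage markers was 31370 and 31597 on the GSK126 arrays and 26052 and 26823 on the DMSO arrays. This sum includes HLA-DRA, CD74, BLNK, CD79A and MS4A1, called risen above, so it is not separate evidence of a rise. Its largest term, PAX5, had 13294 and 13765 with GSK126 and 13421 and 14015 with DMSO. From bulk RNA, a larger share of cells with a gene and more RNA per cell cannot be told apart. Brought to equal medians, 3 of the 29 rose in place of 7, and 3 did in a fit of the 4 arrays alone.

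OCI-LY-19 had little HLA-DRA, SPIB and MS4A1 transcript without the drug, compared with most other lines. Its mean DMSO signal for HLA-DRA was 714, against 82.5 in DB and 3948 to 26086 in the 8 other lines. For SPIB it was 276, against 730 in DB and 4024 to 7696 in the others. MS4A1 had 32.6, against 5183 in HT, the lowest of the other lines, and BCL6, the master repressor of the germinal centre, 81.0 against 1791 in Toledo, the lowest of the others. PAX5 had its highest DMSO level in OCI-LY-19, at 13718 against 3418 to 10791. With GSK126 the mean reached 2013 for HLA-DRA and 712 for SPIB, still below the DMSO level of 8 lines for HLA-DRA and of all 9 for SPIB. These levels are a description, with 2 DMSO arrays per line, and each gene is on the scale of its own probe set.

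**Figure D3:**
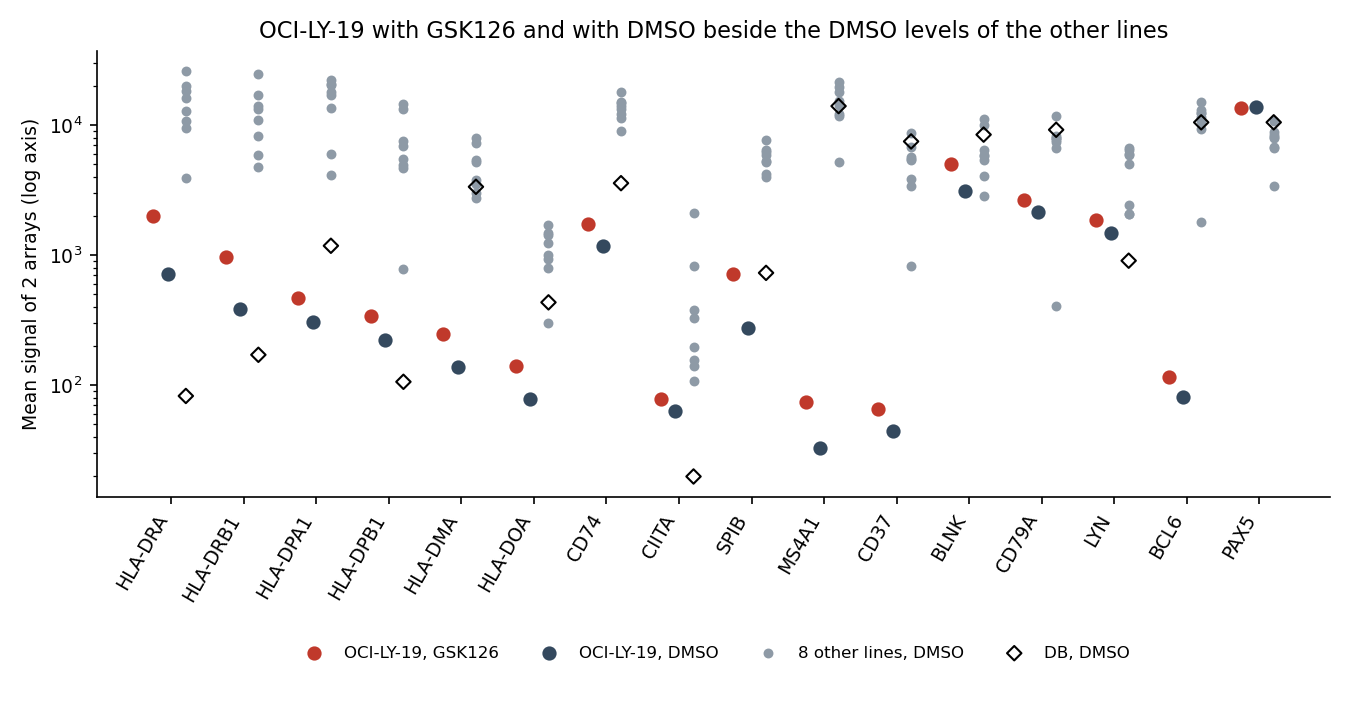
Mean signal of 2 arrays on a log axis, for 16 genes. Red is OCI-LY-19 with GSK126, dark blue OCI-LY-19 with DMSO, grey the DMSO level of 8 other lines and open diamonds the DMSO level of DB. For HLA-DRA, HLA-DRB1 and HLA-DPB1 OCI-LY-19 lies above DB and below the others, and for SPIB, MS4A1 and BCL6 below all 9.

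Low DMSO levels were frequent among the risen genes as a whole. Among the 299 risen genes 119 genes had their lowest DMSO level of the 10 lines in OCI-LY-19 (39.8%), against 1522 of 15211 genes tested (10.0%). For 216 genes it was among the 3 lowest (72.2%, against 29.2% of genes tested), and for 5 it was the highest (1.67%, against 13.9%). Of the 67 fallen genes 10 had their lowest level in OCI-LY-19 (14.9%) and 32 had it among the 3 lowest (47.8%). Level and response share the DMSO arrays, so a low DMSO value raises both counts, and these shares are given without a test. Low signal as such was less marked: 84 risen genes lay below the array median on both DMSO arrays (28.1%), against 22.1% of genes tested.

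The other lists held 0 to 3 called genes each, and 18 of 31 held none, where 1.97% of genes tested rose and 0.440% fell. Of the germinal centre list 2 of 20 rose, BCL6 by 0.42 ± 0.08 and MYBL1, a germinal centre MYB factor, by 0.41 ± 0.10. Their calls were lost in 4 and 5 of 14 alternatives, equal medians among them for both. The other MYBL1 probe sets gave 0.59 and -0.33. BCL6 had 116 and 113 with GSK126 and 82.8 and 79.2 with DMSO and stayed far below the DMSO level of every other line. Of 21 plasma cell genes 2 rose, FKBP11, a folding enzyme of secretory cells, by 0.49 ± 0.09 and SEC11C, a subunit of the signal peptidase, by 0.34 ± 0.06. Of 25 lysosome and oxidative stress genes 3 rose: MT1X, a metallothionein, by 0.36 ± 0.08, the lysosomal precursor PSAP by 0.41 ± 0.09 and the cholesterol carrier NPC2 by 0.20 ± 0.05. The PSAP call was lost in 7 of 14 alternatives and that of NPC2 in 8 of 14. Among 30 adhesion genes ANXA5, an annexin that binds phosphatidylserine, rose by 0.66 ± 0.06 (1214 and 1176 with GSK126, 723 and 779 with DMSO) and the integrin chain ITGAL by 0.80 ± 0.19, a call lost in 7 of 13 alternatives. LCK, a Src kinase best known from T cells, rose by 1.16 ± 0.20 as the 1 called gene of 11 T and NK genes tested, and its second probe set gave 1.24. It had 74.2 and 36.3 with GSK126 and 19.7 and 8.74 with DMSO. HLA-E rose by 0.29 ± 0.08 among 17 class I and antigen processing genes, at an adjusted p of 0.0463 that was lost in 11 of 14 alternatives.

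The lists of PRC2, mitosis and DNA replication genes held no called change. All 14 PRC2 and H3K27 demethylase genes lay between -0.15 and 0.12, with 0 called by limma at a lowest adjusted p of 0.372 and 1 with an unadjusted p under 0.05. EZH2 itself had 3309 and 3425 with GSK126 and 3024 and 3384 with DMSO, overlapping groups with a change of 0.07 ± 0.06. Of 30 mitosis genes (median -0.08) 0 were called and 5 had an unadjusted p under 0.05, and of 29 DNA replication genes (median -0.06) 0 were called and 4 did, where 11.7% of all genes tested did. These lists leaned slightly downward. The share above 0 was 16.7% for mitosis, 24.1% for DNA replication and 28.6% for the PRC2 list, against 51.7% of genes tested. Such a lean was not particular to them: it was 12.5% for heat shock proteins, 19.2% for glycolysis and hypoxia and 26.3% for cholesterol and fatty acid synthesis. Other lists lay well above, such as plasma cell genes at 81%. Equal medians moved the median of all genes to -0.06, against 0.01 as deposited, a shift of similar size to these list medians. Interferon-stimulated genes had a median of 0.01, with 0 of 37 called and 2 with an unadjusted p under 0.05. CBX7, a Polycomb repressive complex 1 subunit, rose by 0.90 ± 0.19, and LHX2, a developmental homeobox factor, by 1.30 ± 0.34 at an adjusted p of 0.0375 that was lost in 11 of 13 alternatives. HOX genes had 0 of 19 called and 1 with an unadjusted p under 0.05. Of 2 genes that the paper of the study is known to have followed, TXNIP was at 0.18 ± 0.11 and TNFRSF21 at 0.28 ± 0.35. DDIT3, a stress transcription factor, rose by 0.75 ± 0.16 and TP53INP1, a p53 target, by 0.64 ± 0.17, the TP53INP1 call being lost in 6 of 14 alternatives. The glycolysis and hypoxia list had 2 of 26 fallen, PFKFB4 and P4HA1 (-0.26 ± 0.06, with another probe set at 0.53).

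Most genes risen in OCI-LY-19 were also called risen in other lines. The arrays of those lines are separate, but the fit gave each gene the same pooled spread in every line. A gene with little spread is thus more easily called in all of them, and the shares are given without a test. Of the 299, 260 were called risen in at least 1 other line (87.0%, against 37.7% of genes tested) and 39 in none, and 70 were called risen in at least 5 others (23.4%, against 2.53% of genes tested). The share called risen was 53.5% in Pfeiffer (14.6% of genes tested), 50.2% in KARPAS-422 (15.5%) and 44.1% in WSU-DLCL2 (13.9%). It was 37.8% in SU-DHL-6 (7.42%), 34.1% in HT (6.31%), 32.8% in SU-DHL-10 (11.0%), 21.1% in DB (2.50%), 13.4% in SU-DHL-4 (2.14%) and 0.669% in Toledo (0.138%). In the other direction, these genes made up 7.18% of the risen genes of Pfeiffer, 16.5% of those of DB and 10.6% of those of HT. Some of the 299 were called fallen elsewhere: 29 in KARPAS-422 (13.4% of genes tested), 27 in WSU-DLCL2 (12.7%) and 27 in SU-DHL-10 (7.16%). The number was 13 in SU-DHL-6 (3.56%), 8 in Pfeiffer (9.93%), 8 in HT (3.00%), 3 in DB (0.618%) and 0 in SU-DHL-4 and Toledo. Among the 67 fallen genes 43 were called fallen in at least 1 other line (64.2%, against 28.2% of genes tested) and 24 in none. The share called fallen was 35.8% in WSU-DLCL2 (12.7% of genes tested), 35.8% in KARPAS-422 (13.4%), 28.4% in SU-DHL-10 (7.16%) and 26.9% in Pfeiffer (9.93%). It was 23.9% in SU-DHL-6 (3.56%), 13.4% in HT (3.00%), 5.97% in SU-DHL-4 (0.454%) and 1.49% in DB (0.618%), and 0 of the 67 were called fallen in Toledo (0.0263%). Others of the 67 were called risen: 11 in WSU-DLCL2 (13.9% of genes tested), 10 in Pfeiffer (14.6%), 7 in KARPAS-422 (15.5%) and 7 in SU-DHL-10 (11.0%). The remaining lines had 1 to 4 each. The median change of the 67 genes was small in every other line, from -0.12 in KARPAS-422 to -0.00 in Toledo.

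**Figure D4:**
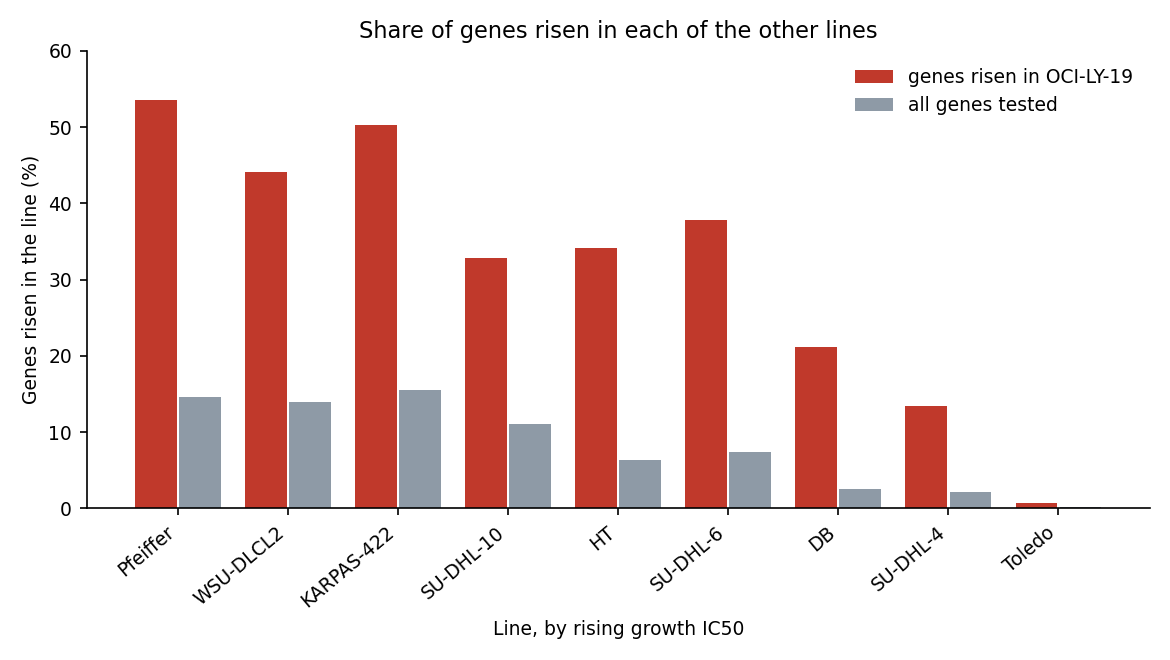
For each of the other 9 lines, ordered by rising growth IC50, the red bar gives the percentage of the 299 genes risen in OCI-LY-19 that were called risen there, and the grey bar the same percentage for all 15211 genes tested. The red bar is the taller one in every line, from 53.5% in Pfeiffer to 0.669% in Toledo.

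The genes risen in OCI-LY-19 and in 8 of the 9 other lines were ABAT, DSTN, FAM229B, HLA-DOA, MSRB2, PRKAR2B, SMKR1 and TSC22D1. DSTN, an actin-severing protein, had 816 and 844 with GSK126 and 299 and 368 with DMSO, a change of 1.28 ± 0.09 (adjusted p = 3.73e-10). Its change in the other lines ran from 0.12 in Toledo to 2.00 in SU-DHL-10. ABAT, which breaks down the transmitter GABA, rose by 1.01 ± 0.15 in OCI-LY-19, and its change elsewhere ran from 0.14 in Toledo to 3.75 in KARPAS-422. PRKAR2B, a regulatory subunit of protein kinase A, rose by 1.42 ± 0.23.

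Against the other wild type lines, HT and Toledo, the response of OCI-LY-19 differed for 180 genes (1.18% of those tested), 108 higher (0.710%) and 72 lower (0.473%). HLA-DRA exceeded their mean response by 1.42 ± 0.12 (adjusted p = 9.93e-09), HLA-DRB1 by 1.22 ± 0.10, SPIB by 1.29 ± 0.09 and HLA-DMA by 0.79 ± 0.07. In HT and Toledo these genes lay between -0.08 and 0.14. Such p-values cover the spread between arrays, not between lines, and the 3 differences reported here share the OCI-LY-19 arrays. At equal medians 89 genes differed, 68 higher and 21 lower.

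Against the mean of the 7 mutant lines, 616 genes differed (4.05%), 260 higher (1.71%) and 356 lower (2.34%). The HLA-DRA response was higher by 1.23 ± 0.10 (adjusted p = 5.78e-09) and that of SPIB by 1.05 ± 0.08. The mutant lines were not alike: HLA-DRA ran from -0.00 to 0.86 in them and SPIB from -0.37 to 1.63. Among all the other lines HLA-DRA was called risen in 3, and SPIB was called risen in 3 and fallen in 1. SRGN, the granule proteoglycan serglycin, was lower by 2.07 on the log2 scale: it was at -0.09 ± 0.13 in OCI-LY-19 and averaged 1.98 over the mutant lines. For HLA-DOA the difference of 0.14 ± 0.10 did not pass the test (adjusted p = 0.582). At equal medians 314 genes differed, 174 higher and 140 lower, so the balance of directions depended on the scaling. Without 1 OCI-LY-19 array the count was 338 (GSK126 replicate 2), 395 (GSK126 replicate 1) and 405 (DMSO replicate 1). For the difference from HT and Toledo it was 114 without GSK126 replicate 2, and for that from DB 160.

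DB, a mutant line with the nearest lower growth IC50 (861 nM), was the other line with low DMSO levels of HLA-DRA, HLA-DRB1 and SPIB. Here 242 genes differed in response (1.59%), 119 higher (0.782%) and 123 lower (0.809%), or 42 and 117 at equal medians. HLA-DRA rose by 0.86 in DB and HLA-DRB1 by 0.68, and the responses of OCI-LY-19 were larger by 0.63 ± 0.14 (adjusted p = 0.0115) and 0.62 ± 0.11 (adjusted p = 0.0015). SPIB rose by 1.63 in DB and HVCN1 by 1.82, and the differences of -0.32 ± 0.11 (adjusted p = 0.182) and -0.14 ± 0.19 (adjusted p = 0.916) did not pass the test, which does not show the responses to be equal. The largest separation was JCHAIN, the joining chain of polymeric antibodies, at -0.06 ± 0.28 in OCI-LY-19, where it was listed at 0.86 and 0.48 with GSK126 and 0.66 and 2.24 with DMSO, and at 3.68 in DB.

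**Figure D5:**
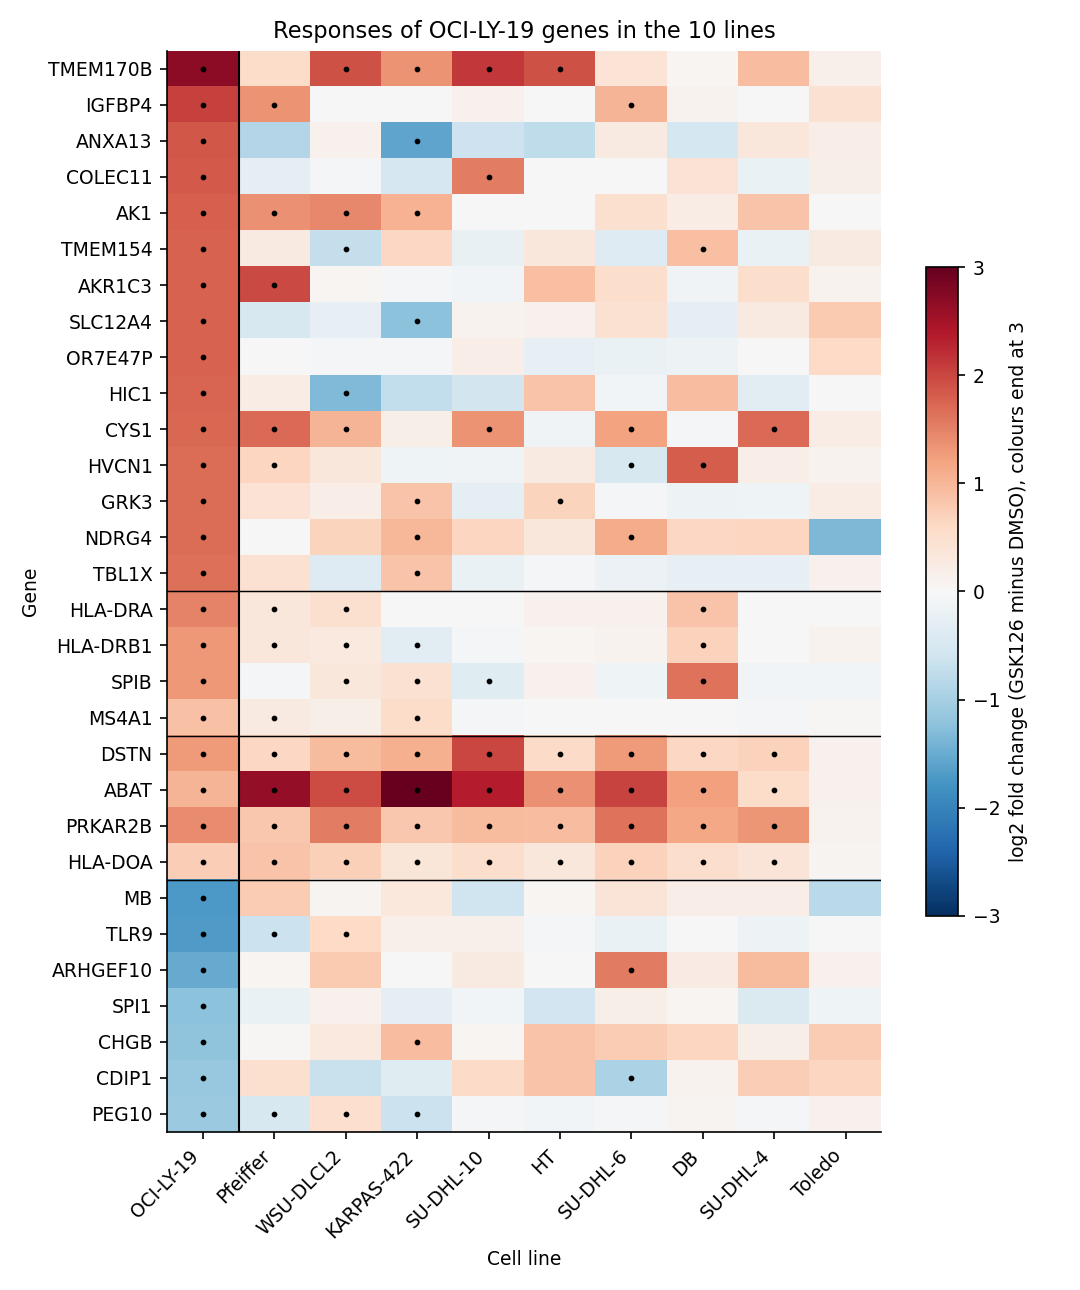
Rows are genes and columns lines, OCI-LY-19 first and the other 9 by rising growth IC50. Colour gives the log2 fold change, GSK126 minus DMSO, and a dot marks an adjusted p under 0.05. Rows run from the 15 largest rises through HLA-DRA, HLA-DRB1, SPIB and MS4A1 and 4 genes risen in 8 other lines to 7 falls. HLA-DRA is at 1.49 in OCI-LY-19 and 0.86 in DB.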

How the data were processed

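RNA was measured on 1-colour Affymetrix arrays, and the deposited values are log2 signals made with MAS5, per the submitters' processing notes (version not stated there). That program scales each array by itself. With 2% of probe sets trimmed from each end, the linear mean was 500 on all 40 arrays. Detection calls were left aside, and 2 arrays per group limit the precision.

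Of 54675 probe sets, 41091 had 1 gene symbol in the platform annotation, which can be old, 1801 had several, 11721 none and 62 were controls. For each gene the brightest single-symbol probe set, by mean over the series, was used, and the gene was tested if that probe set exceeded the array median on at least 2 of the 40 arrays, giving 15211 of 19775 genes. Analysis used log2(signal + 17.72), the pseudocount being the median over arrays of the 25th percentile. limma 3.58.1 in R 4.3.3 fitted 1 mean per line and treatment to all 40 arrays with an intensity trend (20 residual and 6.98 prior degrees of freedom). Tests were two-sided, with Benjamini-Hochberg adjustment across all tested genes. The ± values are standard errors of the fit, whose spread for each gene is pooled over all 40 arrays, not that of OCI-LY-19 alone. The code was tested on simulated data with the spread of the real groups. It called 46% of 100 genes changed by 0.5 log2 and 67% of 100 changed by 1.0. A gene not called here is thus not shown to be unchanged.

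The replicate numbers of the titles did not pair the arrays. Deviations of same-numbered arrays from their group means correlated at -0.04463 to 0.06943 over the 10 lines (0.007798 in OCI-LY-19). The descriptions carry a tag of unknown meaning that is the same for all 4 OCI-LY-19 arrays.

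By rule the text names the 15 largest rises and 12 largest falls with arrays that do not overlap, the PRC2 genes, TXNIP and TNFRSF21, up to 4 called genes per list, the 5 largest differences each way and the cell type markers. Y-linked genes are left out, which removes 1 fall and 1 difference from HT and Toledo. Further class II and B cell identity genes, the genes risen in 8 other lines and those of the other observations were named after their values were seen. The line, the 31 lists (675 genes, 547 of them tested) and the tests were chosen with earlier results of these data known. RefSeq promoters were matched by symbol. Alternatives changed the pseudocount, scaling, filter, variance model, probe set, replicate block and the arrays included.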

Additional observations from a re-analysis of the deposited data

Results flagged for a closer look

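The response of OCI-LY-19 differed from the mean response of the other wild type lines, HT and Toledo, for 180 genes (limma contrast, adjusted p under 0.05). The largest differences downward were -2.50 for RND2, -2.02 for CHGB, -1.89 for CDIP1 and -1.77 for TNNI1, a troponin subunit. CHGB and CDIP1 fell in OCI-LY-19 (-1.21 and -1.14) and averaged 0.81 and 0.75 in HT and Toledo. Their calls in OCI-LY-19 were lost in 5 and 8 of 13 alternatives, while RND2 and TNNI1 did not pass the test in OCI-LY-19 itself (-1.43 and -0.53). The largest differences upward were 2.16 for NDRG4, 2.15 for ANXA13, 1.82 for IGFBP4, 1.80 for AK1 and 1.72 for PPARA, a nuclear receptor of fatty acid metabolism. PPARA had signals of 240 and 238 with GSK126 and 134 and 32.9 with DMSO, so its DMSO arrays were far apart.

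From the mean of the 7 mutant lines the response differed for 616 genes. RND2 differed by -2.60, ARHGEF10 by -2.07, SRGN by -2.07, MORN1 by -1.94 and MB by -1.92. MORN1 was at -1.66 in OCI-LY-19, where it did not pass the test (adjusted p = 0.0603). In the upward direction ANXA13 differed by 2.27, HIC1 by 2.01, SLC12A4 by 1.97, OR7E47P by 1.81 and TMEM154 by 1.75. OR7E47P lay between -0.19 and 0.21 in the mutant lines, and ANXA13 between -1.58 and 0.35.

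From DB the response differed for 242 genes. JCHAIN differed by -3.74, GAL3ST1, a sulfotransferase of glycolipids, by -2.60, SRGN by -2.38, CDKN2A, a cell cycle inhibitor locus, by -1.97 and PTPRCAP, a partner of the CD45 phosphatase, by -1.89. None of these 5 passed the test in OCI-LY-19, and each was at 1.18 or more in DB. CDKN2A had 35.2 and 176 with GSK126 and 162 and 152 with DMSO, so 1 treated array stood apart. Upward differences were 2.62 for TMEM170B, 2.60 for BMERB1, 2.39 for ANXA13, and 2.19 and 2.16 for the zinc finger genes ZNF90 and ZNF528. BMERB1 was at 0.93 in OCI-LY-19 (adjusted p = 0.382) and -1.68 in DB. All these p-values cover the spread between arrays and not between lines.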

How the results depend on the processing

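With 2 arrays per group the calls were sensitive to which arrays and which scaling were used. The cause of these changes was not tested, except that leaving arrays out reduces the samples. In place of 366 called genes, equal medians gave 165 (127 risen, 38 fallen), the 4 OCI-LY-19 arrays fitted alone 138 (77 of them shared), and leaving out 1 array 196 to 272. The lone array left in a group is then assumed to vary like the other groups. The differences gave 89, 314 and 159 genes at equal medians in place of 180 (HT and Toledo), 616 (mutant lines) and 242 (DB). The higher share was then 76.4% in place of 60%, 55.4% in place of 42.2% and 26.4% in place of 49.2%. Leaving out 1 OCI-LY-19 array gave 114 to 183, 338 to 418 and 160 to 220 genes. With the replicate number as a block the counts were 280, 154, 489 and 194, and 7 class II and 7 B cell identity genes rose. Risen class II genes numbered 3 in the arrays alone and 6 to 7 without 1 array. Risen B cell identity genes numbered 3 at equal medians, 3 in the arrays alone and 6 to 7 without 1 array. At the probe set brightest in OCI-LY-19 the direction turned for ARHGEF10 (0.62), PEG10 (0.28) and MS4A1 (-0.56), for the difference of PPARA from HT and Toledo (-0.02) and for that of ARHGEF10 from the mutant lines (0.50). Of 52 named called genes, 10 were called under every alternative run: TMEM170B, IGFBP4, OR7E47P, HVCN1, SPIB, BLNK, HLA-DRA, HLA-DRB1, ANXA5 and CD74. A further 7 (AK1, TMEM154, GRK3, NDRG4, TLR9, HLA-DMA and HLA-DOA) lost the call only in the fit of the 4 arrays alone. No direction of these 52 genes turned under the other alternatives, and genes named beyond them were not followed through the alternatives.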

Other observations

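The genes below were picked from the called genes after their values were seen, and members of the same families that were not called were not counted. Of genes with a part in cytokine reception, those picked were IL4R, which rose by 0.97 ± 0.18, IL21R by 0.98 ± 0.15, IL6ST, the shared signalling chain of the interleukin 6 family, by 1.21 ± 0.17, IFNGR2 by 0.67 ± 0.09, IFNAR2 by 0.46 ± 0.09 and the kinase JAK1 by 0.22 ± 0.06. IL21R had 47.7 and 47.8 with GSK126 and 15.2 and 15.6 with DMSO. It was called fallen in 4 other lines and risen in 0. JAK1 was called risen in 6 other lines. Lysosomal genes picked from outside the list, of which 3 of 25 rose, were the glucosidase GAA, which rose by 0.70 ± 0.18, the lipase LIPA by 0.43 ± 0.08, the activator GM2A by 0.41 ± 0.06, progranulin (GRN) by 0.36 ± 0.08, GNPTAB, which tags lysosomal enzymes, by 0.36 ± 0.09 and the peptidase TPP1 by 0.22 ± 0.06. LIPA had 3527 and 3585 with GSK126 and 2643 and 2622 with DMSO and was called risen in 7 other lines.

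Further genes outside the lists were called as well. C12orf75 had 340 and 356 with GSK126 and 135 and 119 with DMSO, a change of 1.34 ± 0.08 (limma, adjusted p = 4.88e-12), and it was called fallen in 5 other lines and risen in 0. Its response exceeded the mean of the mutant lines by 1.67 ± 0.09 and that of HT and Toledo by 1.46 ± 0.10. NRARP, a feedback regulator of Notch signalling, had 1505 and 1590 with GSK126 and 716 and 708 with DMSO, a change of 1.10 ± 0.26 (adjusted p = 0.0146), and was called in no other line. The neuronal kinesins KIF5A and KIF5C, motors of microtubule transport, rose by 1.32 ± 0.31 and 1.44 ± 0.17. KIF5C had 136 and 86.3 with GSK126 and 42.5 and 18.5 with DMSO.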
